A study of Mus musculus with 11 samples.

Results

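The genes described here encode cell-surface receptors through which hormones and local mediators drive or restrain lipolysis, the release of fatty acids from stored triglyceride in fat cells. The list held Adrb1, Adrb3, Ptger3, Adora1, Lpar1, Npr1 and Npr3, and every probe set annotated to 1 of these genes alone was taken, whatever its brightness. This gave 9 probe sets of 45037 on the array, 3 for Npr3, 3 for Lpar1, 2 for Ptger3 and 1 for Npr1, so that 4 of the 7 genes were measured. No probe set was named for Adrb1, Adrb3 or Adora1 in the annotation used here, and these 3 genes were not analysed here.

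The arrays hold total RNA of epididymal fat, a visceral depot, from male C57BL/6 mice aged 3 months and kept on standard chow, with 1 one-colour Affymetrix array per sample. Wild-type mice (B1+/+) gave 4 arrays and kinin B1 receptor knockout mice (B1-/-) gave 4. Fat rescue mice (aP2B1-B1-/-) gave 3 and carry the same knockout together with selective rescue of the receptor in fat. The name aP2 refers to Fabp4, and the Fabp4 promoter, a usual driver of fat cell transgenes, is also active in macrophages. The labels call the arrays biological replicates without naming animals or litters, so p-values measure only the spread between these samples. The study asks how fat differs in the presence and absence of the receptor.

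Lipolysis in fat cells is switched on mainly through cyclic nucleotides. Beta-adrenergic receptors couple to the stimulatory G protein, raise cyclic AMP and activate protein kinase A, which phosphorylates hormone-sensitive lipase and perilipin. The prostaglandin receptor encoded by Ptger3 and the adenosine receptor encoded by Adora1 couple to inhibitory G proteins and lower cyclic AMP. Natriuretic peptides act through cyclic GMP: Npr1 encodes the guanylyl cyclase receptor of the atrial and brain peptides, whereas Npr3 encodes the clearance receptor, which binds the peptides and takes them up for degradation. This route drives lipolysis strongly in human fat and weakly in rodent fat, where the clearance receptor is abundant. Lpar1 encodes a receptor for lysophosphatidic acid, a lipid that fat cells help to make.

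All arrays were scaled to the same trimmed mean signal. Wild-type array 1 lay farthest out in a principal component analysis, at -68.1 on component 1 (19.8% of the variance), with the other 10 arrays between -28.1 and 33.9. The signal is the deposited value of a probe set, linear and with no unit, and signals of different probe sets are not levels that can be set against each other. No detection calls were used, so background was taken on each array as the 95th percentile of 86 probe sets for olfactory, vomeronasal and taste receptor genes, which fat is not known for; it lay between 29.0 and 41.8. By this measure 45.2% of all probe sets were above background on all 11 arrays. All 8 adipocyte markers with a probe set were above it in every genotype, led by Fabp4, Adipoq and Retn, and so were all 10 endothelial, 10 macrophage, 9 mesothelial and 9 fibroblast markers. None of the 7 markers of the epididymis was above it in any genotype, and in knockout and wild type none of the 5 nerve markers was.

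Bdkrb1, the gene that the genotypes differ in, was itself weak. Its only probe set gave the wild-type arrays 5.5, 32.2, 3.7 and 8.9, the knockout arrays 4.8, 29.4, 6.9 and 29.7, and the fat rescue arrays 73.4, 57.8 and 60.4. It was above background on 1 of 4 wild-type, 0 of 4 knockout and 3 of 3 fat rescue arrays, and the fat rescue arrays lay above all arrays of both other groups. Of all probe sets 4.55% had all fat rescue arrays above all wild-type arrays, and 2.57% above all knockout arrays. Over all probe sets neither difference passed (adjusted p = 0.554 against wild type and 1.0 against knockout, by limma), and the sources used here do not say whether the probe set covers the deleted part of the gene. Beside it, 8 of the 9 receptor probe sets were above background on all 11 arrays. The exception was the dimmer Ptger3 probe set, which was above background on none.

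**Figure D1:**
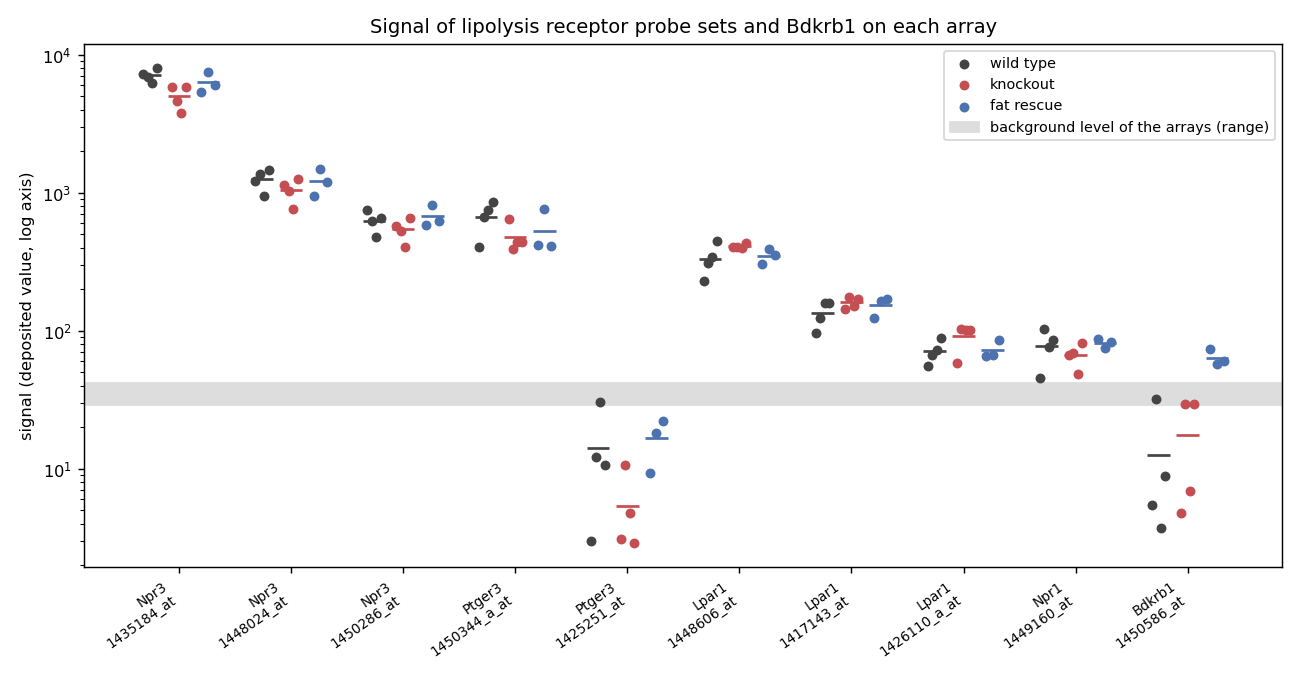
Deposited signal (log axis) of the 9 receptor probe sets and of Bdkrb1 on each of the 11 arrays, by genotype; points are arrays, short lines are means, and the grey band is the range of the background level over the arrays. The brightest Npr3 probe set lies between 3785 and 8036, whereas the dimmer Ptger3 probe set and Bdkrb1 in wild type and knockout lie at or under the band.

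None of the receptor probe sets differed between genotypes beyond the threshold of an adjusted p of 0.05 over all probe sets. In knockout against wild type 0 of 9 passed where 0.0178% of all probe sets did, in fat rescue against wild type 0 of 9 where 0.0155% did, and in fat rescue against knockout 0 of 9 where 0% did. With an unadjusted p under 0.05 there were 1, 0 and 1 of 9 in these comparisons, beside 6.53%, 6.68% and 4.13% of all probe sets. The smallest adjusted p among the 9 was 0.613, 0.845 and 1.0. The intervals given below are each for 1 probe set and are not adjusted for the number of probe sets tested. An interval that leaves out 0 is therefore no call, and a missed threshold does not show equal levels.

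Npr3 had its lowest mean signals in the knockout in all 3 probe sets. Its brightest, 1435184_at, gave the wild-type arrays 7191, 6869, 6248 and 8036, the knockout arrays 5827, 4629, 3785 and 5824, and the fat rescue arrays 5330, 7544 and 6066. All 4 knockout arrays lay below all 4 wild-type arrays, and the fat rescue arrays overlapped with both groups.

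Wild type averaged 7086 ± 745 (SD, n = 4) with this probe set, knockout 5016 ± 996 (n = 4) and fat rescue 6313 ± 1128 (n = 3). The knockout minus wild type difference was -0.52 ± 0.15 on the log2 scale (SE; 95% confidence interval -0.83 to -0.20), or 0.700 times the wild-type level. It did not pass over all probe sets (adjusted p = 0.613 by limma), and it ranked 256 of 45037 probe sets by p. Fat rescue minus knockout was 0.34 ± 0.16 (interval -0.00 to 0.68; adjusted p = 1.0 by limma), and fat rescue minus wild type was -0.18 ± 0.16 (interval -0.52 to 0.17; adjusted p = 0.870). These comparisons share arrays, so the values are not independent of each other.

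Of the 9 receptor probe sets this was the only one whose knockout and wild-type arrays did not overlap, or 11.1%. Over the whole array 3.63% of probe sets did not overlap in this comparison, 1.35% with all knockout arrays below all wild-type arrays and 2.28% with all above. Between fat rescue and wild type 0 of 9 did not overlap, where 7.23% of all probe sets did not, 2.68% lower and 4.55% higher in fat rescue.

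Both other Npr3 probe sets had smaller differences of the same sign. Probe set 1448024_at gave the wild-type arrays 1218, 1370, 948 and 1455, the knockout arrays 1129, 1025, 756 and 1247, and the fat rescue arrays 949, 1483 and 1196. Probe set 1450286_at gave the wild-type arrays 749, 627, 480 and 657, the knockout arrays 572, 532, 408 and 661, and the fat rescue arrays 580, 815 and 625. In both, the knockout and wild-type arrays overlapped.

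Their knockout minus wild type differences were -0.27 ± 0.17 (log2, SE; interval -0.64 to 0.10) and -0.21 ± 0.16 (interval -0.56 to 0.13). Fat rescue minus knockout was 0.22 ± 0.19 and 0.32 ± 0.17, again above 0 in all 3 probe sets. Against wild type, fat rescue had differences of -0.05 and 0.10, so that the 3 probe sets did not share a sign there. With the log2 values of the 3 probe sets averaged, knockout minus wild type was -0.33 ± 0.16 (interval -0.67 to 0.01).

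The probe sets of Npr3 followed each other from array to array within a genotype. In all 3 of them wild-type array 3 was the lowest wild-type array, knockout array 3 the lowest of all 11 arrays, and fat rescue array 1 the lowest and array 2 the highest of the fat rescue arrays. Without knockout array 3 the brightest probe set differed from wild type by -0.39 and fat rescue minus knockout was 0.21. Without fat rescue array 2 fat rescue minus knockout was 0.20 and fat rescue minus wild type -0.31, and without fat rescue array 1 the latter was -0.06. The 3 genes most like this probe set over the 11 arrays were found by Pearson correlation of log2 signals among 12708 genes. They were Fam229b (r = 0.916), Mpdz (0.913), which encodes a scaffold protein with many PDZ domains, and Olfr15 (0.907), an olfactory receptor gene. The Olfr15 probe set is also among the 86 that set the background level.

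**Figure D2:**
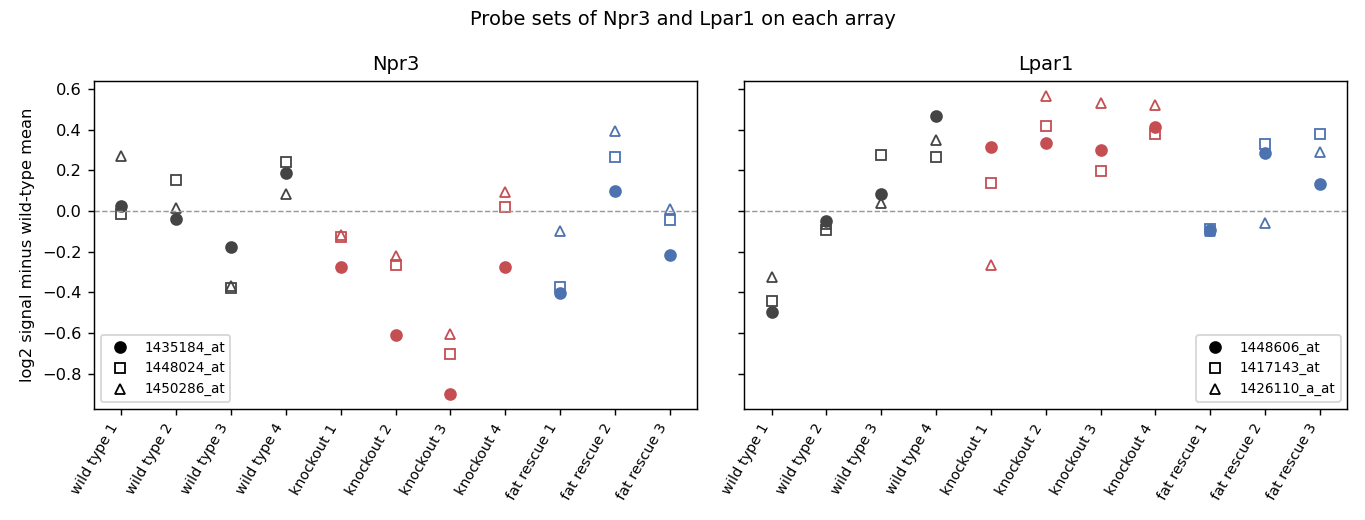
Log2 signal minus the wild-type mean of the same probe set, for the 3 probe sets of Npr3 and the 3 of Lpar1 on each array; symbols mark probe sets and colours genotypes (grey wild type, red knockout, blue fat rescue). All 3 Npr3 symbols are lowest in knockout array 3; those of Lpar1 are lowest in wild-type array 1.

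Npr1, the signalling receptor for the same peptides, was weak but above background on every array. Its only probe set, 1449160_at, gave the wild-type arrays 45.2, 103.5, 76.6 and 85.7, the knockout arrays 66.7, 69.4, 48.6 and 82.2, and the fat rescue arrays 86.6, 74.6 and 83.0. The 3 groups overlapped, and the wild-type arrays held both the lowest and the highest value.

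Knockout minus wild type was -0.18 ± 0.26 on the log2 scale (SE; 95% interval -0.73 to 0.36; adjusted p = 0.916 by limma). Fat rescue minus wild type was 0.13 ± 0.28 (interval -0.46 to 0.72), and fat rescue minus knockout 0.31 ± 0.28 (interval -0.28 to 0.90). Without wild-type array 1 the first difference was -0.42 and that of fat rescue from wild type turned to -0.11. The genes most like it over the 11 arrays were Dip2a (Pearson r = 0.905), Ccdc28b (0.903) and L1cam (0.886), which encodes a neural cell adhesion molecule. By Spearman rank correlation these were lower, at 0.745, 0.873 and 0.664.

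The log2 signal of Npr1 minus that of the brightest Npr3 probe set was also followed, because the balance of signalling and clearance receptor sets how much peptide signal reaches a cell. Relative to the wild-type mean it was 0.33 ± 0.17 (SD, n = 4) in knockout, from 0.12 to 0.51, and 0.30 ± 0.36 (n = 3) in fat rescue, from -0.09 to 0.62. The wild-type arrays themselves read -0.75, 0.51, 0.22 and 0.02, so the groups overlapped. Wild-type array 1 was the only wild-type array below the mean that both lines are set against.

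Ptger3, the inhibitory prostaglandin receptor, had its highest mean in wild type. Its brighter probe set, 1450344_a_at, gave the wild-type arrays 402, 668, 746 and 851, the knockout arrays 644, 393, 439 and 441, and the fat rescue arrays 420, 766 and 411. Of these, 3 of 4 wild-type arrays were above all knockout arrays, while wild-type array 1 was within the knockout range, and 2 of the 3 fat rescue arrays lay close to the lower knockout arrays.

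Its means were 667 ± 192 (SD, n = 4), 479 ± 112 (n = 4) and 532 ± 203 (n = 3). Knockout minus wild type was -0.45 ± 0.24 (log2, SE; 95% interval -0.96 to 0.06; adjusted p = 0.774 by limma), and -0.67 without wild-type array 1. Fat rescue minus wild type was -0.34 ± 0.26 (interval -0.88 to 0.21). Fat rescue minus knockout was 0.11 ± 0.26 (interval -0.43 to 0.66), which turned to -0.18 without fat rescue array 2. The genes most like it were Fam20c (Pearson r = 0.891 over 11 arrays), a kinase of secreted proteins, Uvrag (0.858) and Gli2 (0.852), a transcription factor of hedgehog signalling.

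The dimmer Ptger3 probe set, 1425251_at, read between 2.9 and 30.3 on all arrays and lay below background on each. Its differences were -1.17 ± 0.75, 0.58 ± 0.81 and 1.75 ± 0.81 on the log2 scale, in the order knockout minus wild type, fat rescue minus wild type and fat rescue minus knockout. Both groups of each comparison were below background, so these are no sizes of a change, although the last was the only receptor difference in that comparison with an unadjusted p under 0.05 (0.0478; adjusted p = 1.0 by limma). It also turns the fat rescue minus wild type value of Ptger3 to 0.12 when the probe sets are averaged.

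Lpar1 ran the other way, with its highest means in the knockout in all 3 probe sets. The brightest, 1448606_at, gave the wild-type arrays 229, 312, 342 and 446, the knockout arrays 402, 408, 397 and 430, and the fat rescue arrays 303, 394 and 354. The knockout arrays were tightly grouped and within the upper part of the wild-type range. All 3 fat rescue arrays lay below all 4 knockout arrays, which made this 1 of 9 receptor probe sets without overlap in that comparison. Of all probe sets 5.24% had none there, 2.67% with fat rescue lower and 2.57% with it higher.

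Wild type averaged 332 ± 89.8 (SD, n = 4), knockout 409 ± 14.4 (n = 4) and fat rescue 350 ± 45.5 (n = 3). Knockout minus wild type was 0.34 ± 0.16 (log2, SE; 95% interval -0.00 to 0.68; adjusted p = 0.765 by limma). Fat rescue minus knockout was -0.23 ± 0.17 (interval -0.60 to 0.14; adjusted p = 1.0 by limma), and fat rescue minus wild type 0.11 ± 0.17 (interval -0.26 to 0.48; adjusted p = 0.932).

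The other probe sets of Lpar1 gave similar values. Probe set 1417143_at gave the wild-type arrays 96.7, 123.1, 159 and 157.9, the knockout arrays 144.5, 175.8, 150.9 and 171.2, and the fat rescue arrays 123.5, 165 and 171.1, with a knockout minus wild type difference of 0.28 ± 0.18 (interval -0.09 to 0.66). Probe set 1426110_a_at gave the wild-type arrays 56, 67, 72.1 and 89.3, the knockout arrays 58.3, 103.8, 101.4 and 100.8, and the fat rescue arrays 65.5, 67.3 and 85.8, with a difference of 0.34 ± 0.23 (interval -0.15 to 0.83). In both, the knockout arrays overlapped with wild type, and knockout array 1 was the lowest knockout array. Fat rescue minus knockout was below 0 in all 3 probe sets, at -0.23, -0.08 and -0.29.

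Wild-type array 1, which lay farthest out on component 1, was the lowest of all 11 arrays in all 3 Lpar1 probe sets and in Npr1. Without it the knockout minus wild type difference of the brightest Lpar1 probe set was 0.17, and fat rescue minus wild type turned to -0.057. Without wild-type array 4 the first value was 0.50. The genes most like this probe set over the 11 arrays were Greb1 (Pearson r = 0.954), Nav2 (0.952) and Fam166c (0.951).

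**Figure D3:**
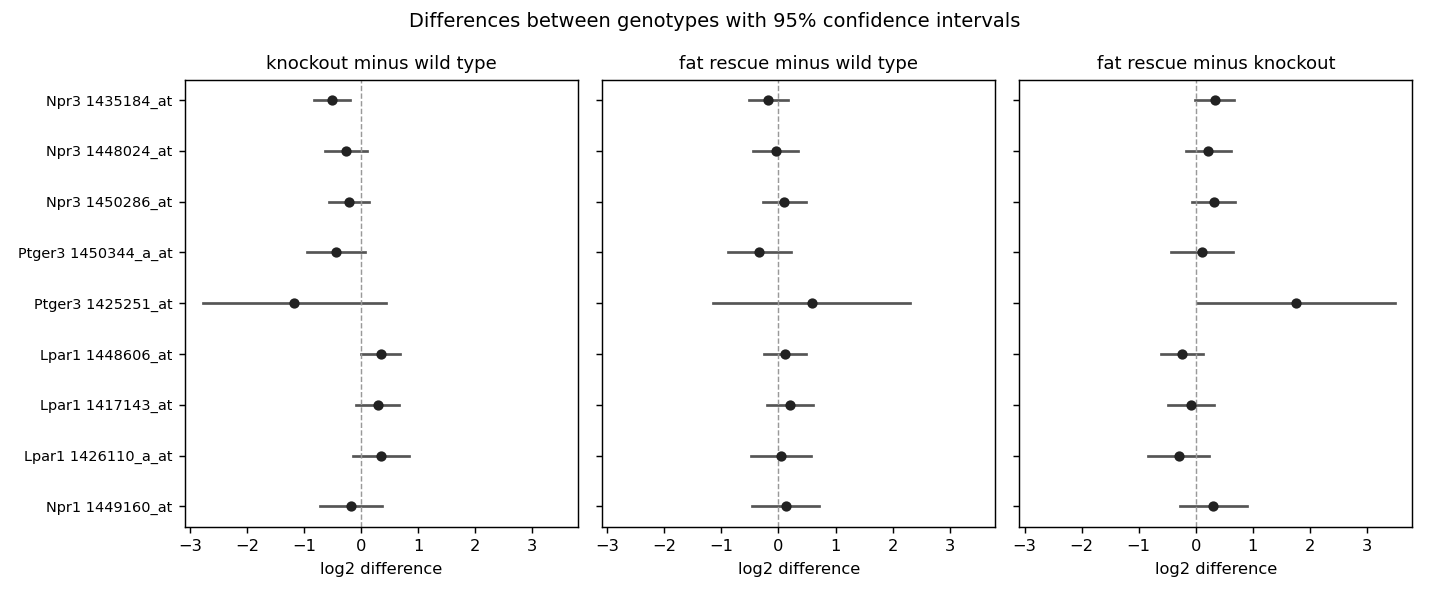
Log2 differences of the 9 receptor probe sets in the 3 comparisons (points), with 95% confidence intervals from limma (lines). The intervals are not adjusted for the number of probe sets tested, and none of these differences passed the threshold. In knockout minus wild type the interval of the brightest Npr3 probe set lies below 0 (-0.83 to -0.20); in fat rescue minus knockout that of the dimmer Ptger3 probe set, which is below background, lies above 0.

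Across the genes the signs of the knockout differences were mixed. Of the 9 receptor probe sets 6 were below 0 and 3, all of Lpar1, above 0, with a median of -0.21, where 42.7% of all probe sets were below 0 and the median of all was 0.05. In fat rescue against knockout 6 were above 0, and the 3 of Lpar1 below, with a median of 0.22 beside -0.00 for all probe sets, of which 50.3% were below 0. Since both comparisons use the knockout arrays, a low knockout value gives opposite signs in them by itself. In fat rescue against wild type 6 were above 0 and 3 below (median 0.10, beside 0.05 for all probe sets, of which 43.4% were below 0). With median centring this became 4 above and 5 below, and with quantile normalization 5 and 4. Both scalings kept the knockout minus wild type sign of all 9, with the 3 Lpar1 values above 0 and the other 6 below. Centring moved the median of all probe sets from 0.05 to -0.10 in knockout against wild type, and from 0.05 to -0.05 in fat rescue against wild type. All counts after centring, here and for the lists below, carry this shift. The brightest Npr3 difference in knockout against wild type moved to -0.66 with centring (adjusted p = 0.184 by limma).

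Markers of several cell types also had unequal means, and 1 array carried part of this in the knockout. All 8 adipocyte markers had a lower mean in knockout than in wild type (median -0.23), with summed signals from 69003 to 92928 and 75123 to 100931. All 10 macrophage markers had a higher mean (median 0.26), with sums of 28719 in knockout array 1, 13925 to 16974 on the other knockout arrays and 12452 to 18058 in wild type. Without knockout array 1, a choice made after seeing the data, 8 of 10 were higher and the median was 0.087. Of 9 fibroblast and progenitor markers 7 were higher (median 0.16), with sums of 43618 in that array, 27087 to 33417 on the other 3 and 25337 to 33565 in wild type. Without the array 3 were higher and 6 lower (median -0.03). All 8 adipocyte markers stayed lower without knockout array 1 (median -0.20). The brightest Npr3 probe set had -0.59 in knockout against wild type without it. With all arrays, 8 of 10 endothelial markers were lower in knockout than in wild type (median -0.09) and 8 of 9 mesothelial markers higher (0.18). In the same comparison 7 of 8 lymphocyte markers were higher (median 0.30) and 6 of 8 smooth muscle and pericyte markers lower (-0.13). In fat rescue against knockout all 10 endothelial markers were higher (median 0.18), and 7 of 8 smooth muscle and pericyte markers (0.13).

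In fat rescue against wild type 9 of 10 macrophage markers had higher means (median 0.39), with sums of 18417 to 22637, above all wild-type arrays. For mesothelium 8 of 9 were higher (median 0.38), with sums of 5383 to 5882 against 2889 to 4942. Leaving out wild-type array 1 gave medians of 0.29 and 0.20. All 8 lymphocyte markers, of which 3 were above background in every genotype, were higher too (median 0.41, and 6 of 8 with 0.19 without wild-type array 1), and 7 of 8 adipocyte markers were lower (median -0.12). None of these markers passed the threshold, and none read 0 on any array. The actin 3'/5' control ratio, which depends on RNA quality, was 1.47 to 1.56 in fat rescue, below all wild-type arrays (1.65 to 1.83), and 1.53 to 1.69 in knockout. The part of these markers and of this ratio in the values of the receptors and of the genes below was not tested. In whole fat, fewer cells of a type and less RNA per cell cannot be told apart.

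Other receptors of the same families also had no member past the threshold. Of 19 genes listed 11 had a probe set and 5 of these were above background in all genotypes. In knockout against wild type 8 were above and 3 below 0 (median 0.13, or 5 and 6 with median -0.01 after median centring). Ptger4, which encodes a prostaglandin receptor that raises cyclic AMP, averaged 269 ± 41.2 (SD, n = 4) on the wild-type arrays, against 330 ± 42.1 (n = 4) without the receptor and 334 ± 32.5 (n = 3) with the rescue, with differences from wild type of 0.30 ± 0.13 and 0.32 ± 0.14 (log2, SE; adjusted p = 0.750 and 0.741 by limma). Lpar4, another lysophosphatidic acid receptor, read 71.1, 96.9 and 75.6 (means in wild type, knockout and fat rescue; log2 difference 0.49 in knockout against wild type; adjusted p = 0.767 by limma). Adra2c, an adrenergic receptor that inhibits adenylyl cyclase, and Adora3, another adenosine receptor, were not above background in all genotypes, and their differences are not given as sizes.

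Among 14 other hormone and metabolite receptors that act on lipolysis, 10 were above background in all genotypes, and 0 of the 14 passed. Of the 14, 11 had lower and 3 higher means in knockout than in wild type (median -0.19, or 14 and 0 after median centring). Ffar4, a receptor for long-chain fatty acids, averaged 487 ± 43.4 (SD, n = 4) on the wild-type arrays, against 376 ± 55.7 (n = 4) without the receptor and 369 ± 55.9 (n = 3) with the rescue, with all arrays of both lines below all wild-type arrays. Its differences from wild type were -0.38 ± 0.13 and -0.41 ± 0.14 (log2, SE; adjusted p = 0.706 and 0.671 by limma). Ffar2, a receptor for short-chain fatty acids, had -0.43 ± 0.15 in knockout and -0.38 ± 0.17 in fat rescue with its brighter probe set, and -0.31 and -0.29 with the other. Both lines are compared with the same wild-type arrays. Of all probe sets 1.35% had all knockout arrays below all wild-type arrays, and 2.68% had all fat rescue arrays below them. Sucnr1, the succinate receptor, had -0.17 and -0.26. Tshr, the thyrotropin receptor, had 0.13 in knockout and 0.34 ± 0.11 in fat rescue (adjusted p = 0.645 by limma), while its other probe sets had 0.27 and, near background, -1.10 in fat rescue. In fat rescue against wild type 8 of the 14 were lower (median -0.03).

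Of 26 genes that make, activate or clear the ligands, 21 had a probe set, 16 of them above background in all genotypes, and 0 passed. In knockout against wild type 15 were above and 6 below 0 (median 0.06; 7 and 14 after median centring), and in fat rescue 12 were above and 9 below (median 0.04; 5 and 16 after centring). Mme, which encodes neprilysin, a peptidase that degrades natriuretic peptides, averaged 446 ± 59.96 (SD, n = 4) on the wild-type arrays, against 380 ± 69.5 (n = 4) without the receptor and 293 ± 9.18 (n = 3) with the rescue. Its fat rescue arrays lay below all others. Of all probe sets 2.68% had all fat rescue arrays below all wild-type arrays, and 2.67% below all knockout arrays. Mme had -0.60 ± 0.14 against wild type (log2, SE, adjusted p = 0.40 by limma) and -0.36 ± 0.14 against knockout (adjusted p = 1.0 by limma). Its dimmer probe set had -0.90 and -0.52. Ptges, which encodes the synthase of prostaglandin E2, the ligand of the Ptger3 receptor, had -0.60 ± 0.26 in knockout and -0.83 ± 0.28 in fat rescue (adjusted p = 0.750 and 0.660 by limma). Its second probe set had -0.58 and -0.46, and the dimmest -0.36 and -0.14. Ada, adenosine deaminase, averaged 62.3, 86.5 and 106 in wild type, knockout and fat rescue, with differences from wild type of 0.53 ± 0.23 and 0.82 ± 0.24 (adjusted p = 0.750 and 0.593 by limma). Corin, the protease that activates the atrial peptide, was below background on all 11 arrays.

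Of 32 genes for G proteins, adenylyl cyclases, kinases and phosphodiesterases, 31 had a probe set and 29 were above background in all genotypes; 0 passed. In knockout against wild type 12 were above and 19 below 0 (median -0.04; 5 and 26 after median centring), and in fat rescue 20 and 11 (median 0.03; 6 and 25 after centring). Adcy5, an adenylyl cyclase that inhibitory G proteins act on, averaged 766 ± 137 (SD, n = 4) on the wild-type arrays, against 496 ± 80.5 (n = 4) without the receptor and 499 ± 107 (n = 3) with the rescue. Its differences from wild type were -0.63 ± 0.16 and -0.62 ± 0.17 (log2, SE; adjusted p = 0.502 and 0.543 by limma), while the second brightest of its probe sets had -0.13 and -0.03. Pde4b, a phosphodiesterase that degrades cyclic AMP, had 0.47 ± 0.17 and 0.65 ± 0.19 (adjusted p = 0.706 and 0.571 by limma), while an equally bright probe set had 0.46 and 0.31; fat rescue minus knockout was 0.18 with the former and -0.15 with the latter. Pde3b, through which insulin restrains lipolysis, had -0.22 and -0.32. Akap12, an anchor of protein kinase A, read 1391 ± 6.92 (n = 3) in fat rescue against 1106 ± 101 in wild type and 1067 ± 136 in knockout, with log2 differences of 0.34 ± 0.11 from wild type and 0.39 ± 0.11 from knockout (adjusted p = 0.660 and 1.0 by limma).

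None of the lipolytic effectors at the end of this route passed the threshold. Of 10 genes listed 9 had a probe set, all above background, and 8 of 9 had lower means than wild type in knockout (median -0.22) and in fat rescue (median -0.21), or 9 of 9 in both after median centring. Cidec, Lipe, Fabp4 and Aqp7 are also in the adipocyte marker list above, so these lists overlap and their values are not independent. Mgll, the monoglyceride lipase, had -0.32 ± 0.10 in knockout and -0.30 ± 0.11 in fat rescue with its brightest probe set (log2, SE; adjusted p = 0.698 and 0.702 by limma), with no overlap with wild type in either. Of all probe sets 1.35% had all knockout arrays below all wild-type arrays, and 2.68% had all fat rescue arrays below them. Lipe, hormone-sensitive lipase, had -0.25 ± 0.11 and -0.21 ± 0.12. Cidec, a lipid droplet protein, had -0.28 and -0.27, and Pnpla2, the triglyceride lipase, -0.22 and -0.28. Fat rescue and knockout differed in these 9 genes by a median of 0.02.

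**Figure D4:**
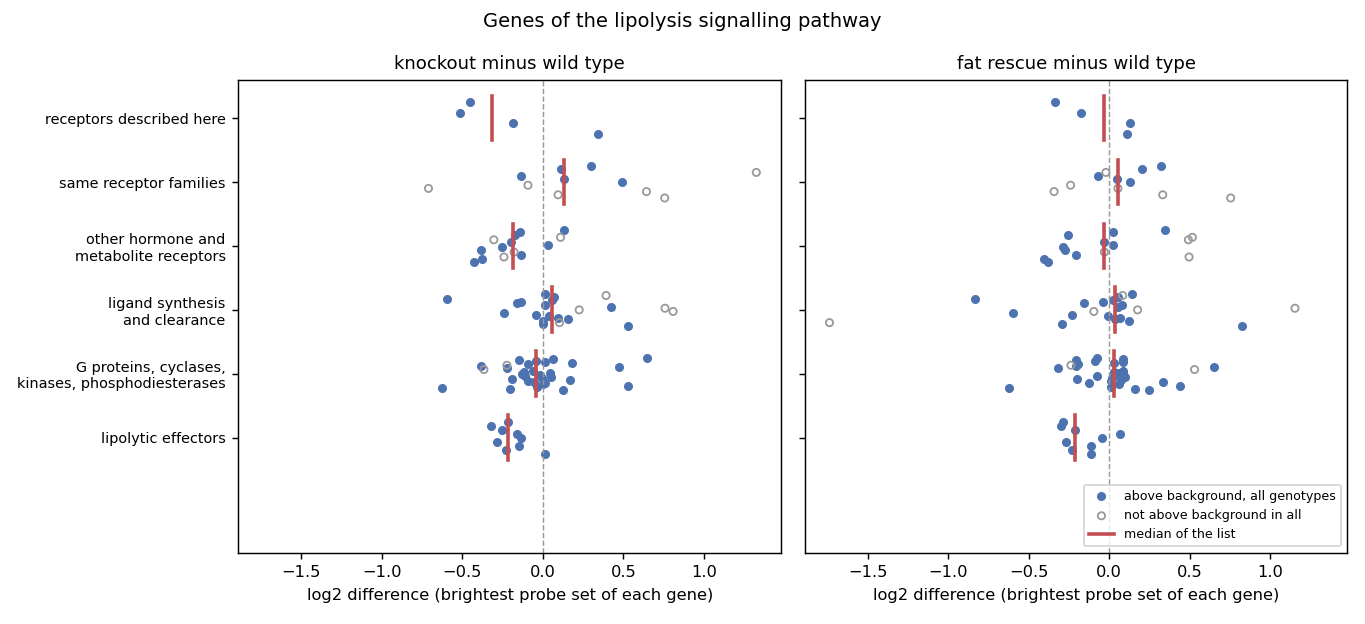
Log2 differences from wild type of the brightest probe set of each gene, by list, for knockout (left) and fat rescue (right); each point is a gene, filled where it was above background in all 3 genotypes, and red lines are medians. In knockout the medians are -0.32 for the 4 receptor genes, 0.13, -0.19, 0.06 and -0.04 for the next lists and -0.22 for the effectors; none of the genes drawn passed the threshold.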

How the data were processed

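Gene expression was measured in 11 epididymal fat samples on one-colour Affymetrix arrays. Per the submitters' processing notes, the deposited signal intensity values came from GCOS 1.3 with the MAS5 algorithm; the values are linear and each array has the same trimmed mean. The genome build of the annotation is not given in the sources used here. Probe sets were named from the platform annotation: 34945 carried 1 symbol, 932 several and 9160 none; 64 control probe sets were left out, and 45037 remained. Before log2, the only 0 in the table was raised to 0.1, the lowest positive value. Genotypes were compared with limma 3.58.1 (lmFit and eBayes with trend, R 4.3.3) on all 11 arrays with 1 mean per genotype, without a filter on dim probe sets, and p-values were adjusted by Benjamini and Hochberg over all 45037. Confidence intervals are at 95% for each probe set, without adjustment for the number tested. Their width is limited by how few arrays there are.

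A gene was called above background in a genotype where every array of it exceeded that array's background level. The brightest probe set stood for a gene in the lists. The 4 genes with the smallest p in any comparison were named from each pathway list, and the 3 genes with the highest correlation for each receptor. These correlations are the highest of 12708 over 11 arrays, so they are high by selection, and whether they exceed chance was not tested. The receptors and the lists were chosen with earlier results of these data known. The fit was tested on simulated data. Alternatives were other scalings, filters, probe set summaries and variance models, the replicate number as a block, and each array left out. Same-numbered arrays of different genotypes correlated at -0.0885 to 0.223 in their deviations, and whether they share more than a number was not tested.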

Additional observations from a re-analysis of the deposited data

Results flagged for a closer look

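In 5 of 60 groups of 4 arrays tested (wild type and knockout, for 30 probe sets), 1 array lay far from the other 3 for the spread of its group, where chance gives about 1 in 20. With the dimmest Lpar1 probe set, knockout array 1 read 58.3 while the other knockout arrays read 100.8 to 103.8. For Adra2c, wild-type array 1 read 11.6 against 29.9 to 33.4. For Corin, wild-type array 4 read 30.8 against 16.1 to 17.8, all below background. For Akap12, wild-type array 1 read 956.8 against 1139.5 to 1175.5. For Lipe, wild-type array 2 read 6971.6 against 8281.3 to 8568.9.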

How the results depend on the processing

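Under all 23 alternatives 0 receptor features passed the threshold in each comparison by limma; 9 probe sets entered, except 8 with the upper 60% filter and 4 genes with 1 value per gene. The knockout minus wild type difference kept its sign under all 23 for each of the 4 genes. Npr3 ranged from -0.66 to -0.33 (adjusted p 0.184 to 0.844 by limma), Ptger3 from -0.81 to -0.31, Lpar1 from 0.17 to 0.50 and Npr1 from -0.42 to -0.02. The -0.81 of Ptger3 came with the mean of its probe sets, of which the dimmer was below background on every array. Its brighter probe set ran from -0.67 to -0.31 with single arrays left out. The sign turned in these cases, and the cause was not tested. For Lpar1, fat rescue minus wild type ran from -0.057 to 0.26 with single arrays left out. For Npr1 it ran from -0.11 to 0.28, and was -0.16 without wild-type array 1 and fat rescue array 1 together, an alternative chosen after seeing the data. For Ptger3, fat rescue minus knockout ran from -0.18 to 0.27 with single arrays left out, and fat rescue minus wild type was 0.12 with the mean of its probe sets.

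Counts over all probe sets moved more. In knockout against wild type 8 passed, but 14 with median centring (4 higher and 10 lower, beside 5 and 3), 5 with the brightest probe set per gene and the upper 60% filter together, 3 with the mean of probe sets, 4 to 16 with single arrays left out and 19 without the 2 arrays above. In fat rescue against wild type 7 passed (4 higher and 3 lower), but 10 with median centring (4 and 6), 2 with the brightest probe set and that filter, 1 with the mean, 4 without the trend, 3 with only the groups compared, 2 to 7 with single arrays left out and 4 without both arrays. In fat rescue against knockout 0 passed (1860 with an unadjusted p under 0.05), and 1 without the trend. Same-numbered arrays correlated at -0.0885 to 0.223 in their deviations, with 3 of 10 pairs over 0.1, and the other pairs at -0.222 to 0.149. The highest value was that of wild-type array 1 with fat rescue array 1. Whether same-numbered arrays share more than a number was not tested. With the replicate block 10, 3 and 0 probe sets passed in these comparisons and Npr3 had -0.52 (adjusted p = 0.543 by limma). With single arrays left out, the medians of the ligand genes and the other hormone receptors in fat rescue and of the G protein and kinase genes in both lines changed sign at least once. So did the median of the 4 receptor genes in fat rescue against wild type. It was -0.033 with all arrays, 0.009 without fat rescue array 1 and 0.040 without wild-type array 4.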

Other observations

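Markers of brown fat cells, in which adrenergic receptors drive heat production, held the one gene of all the lists that passed the threshold. Cox8b, a subunit of cytochrome c oxidase found in brown fat and muscle, read 379.9, 278.9, 271.2 and 231.3 on the wild-type arrays, 172.8, 195.7, 217.3 and 128.4 on the knockout arrays, and 125, 119.8 and 98.5 on the fat rescue arrays. The 3 groups did not overlap. Of all probe sets, 3.63% did not overlap between knockout and wild type. The shares were 7.23% between fat rescue and wild type and 5.24% between fat rescue and knockout. For Cox8b, fat rescue minus wild type was -1.33 ± 0.20 (log2, SE, adjusted p = 0.0458 by limma). Knockout minus wild type was -0.70 ± 0.18 (adjusted p = 0.504 by limma). In fat rescue against knockout 0 probe sets passed, so Cox8b is not shown to differ between these lines. With single arrays left out, the fat rescue minus wild type difference passed in 1 of 11 cases, with adjusted p from 0.0291 to 0.291 by limma. Of the 7 markers 5 had lower means in knockout and 6 in fat rescue than in wild type, but only Cox8b and Ppargc1a were above background in all genotypes. Ppargc1a gave the wild-type arrays 65.6, 89.5, 81.5 and 93.5. Its knockout values were 52.5, 88.5, 122.6 and 108.7, while the fat rescue values were 109.7, 61.9 and 46.4. For this gene the 3 groups overlapped. Cidea, another of the 7 markers, read 18.2 on fat rescue array 3, where background was 41.8, so its differences are not given as sizes. Macrophage and mesothelial marker sums were higher and the actin 3' to 5' ratio lower on all fat rescue arrays than on all wild-type arrays; their part in the Cox8b value was not tested.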
